A study of Mus musculus with 112 samples.

Results

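DNA methylation (DNAme) was compared between the prefrontal cortex of F1 sons of wild-type (WT) sires exposed to cigarette smoke (CS) and that of sons of unexposed WT sires. The members were chosen by their labels, as all libraries of smoked WT F1 brain (n = 8) and control WT F1 brain (n = 8), and made up 16 of the 112 libraries of the series. Each comparison was made with all 16 libraries and again without the last library of the smoked table, called smoked WT column 8, which was singled out because its mean DNAme was low. A result without column 8 therefore describes the other 15 libraries and is no independent evidence.

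The sires were C57BL/6J males. Those of the smoked WT group inhaled CS before mating, and those of the control WT group did not. All sons had an unexposed mother of the CAST/EiJ strain, were never exposed themselves, and were adult at collection, and by the labels each library came from 1 animal. Because all 16 sons were hybrids and the reference is of the sires' strain, a base that differs in CAST/EiJ can alter a percent in both groups. The other brain libraries came from sons of Nrf2-/- sires and are named by the sire (control Nrf2-/- and smoked Nrf2-/-, n = 8 each). By the study's description these sons were Nrf2+/-, so the names do not give the genotype of the brains. Nrf2-/- males lack a working Nfe2l2, the gene of NRF2, a transcription factor that turns on antioxidant genes.

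In mammals, methyl groups sit mostly on cytosines that precede a guanine (CpG). Promoters rich in CpG are mostly unmethylated in the brain, while gene bodies and intergenic sequence are mostly methylated, and sequence of intermediate level often differs between cell types. At imprinted genes a single parental allele is methylated, so that many of their control regions are methylated at an intermediate level. In bulk tissue, a change in the mix of cell types and a change within cells of a type cannot be told apart.

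DNAme was read by reduced representation bisulfite sequencing (RRBS), in which DNA is cut by enzymes with CpG in their site and unmethylated cytosines are converted. The deposited value was a methylation percent per cytosine and library with no read count, so that the depth behind a percent is unknown and the number of cytosines with a value stood in for it. It ranged from 1474107 to 1588194 in the control libraries and from 1484878 to 1624534 in smoked WT columns 1 to 7, and was 1332684 in column 8. Of 1390836 cytosines with a value in at least 4 libraries of each brain group (called scoreable here), column 8 had a value at 83.5%, and the next lowest of the 16 WT libraries, control WT column 6, at 89.9%. Columns carried facility numbers that match no sample label, so they are named by their order, and the numbers of both groups were interleaved. A control WT sample has an Nrf2-/- strain in 1 of its labels. Its title decided its group, and its column is not known.

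Scoreable cytosines at most 100 bp apart were joined into 80920 regions of at least 3 cytosines and over 50 bp, with a median of 6 cytosines and 113 bp. The value of a region in a library is the mean percent of its cytosines, adjusted for which of them had a value. To show what such a region is, 7 of those described here are printed from the GRCm38 reference, with the CpGs measured in capitals. The Tmem267, Cdc42bpb, Slc1a2 and Bcl11b regions had the smallest p-values in their direction over 16 libraries among regions in protein-coding genes that had 16 values and changed by over 5 points, the Rnf145 and Rras regions entered with column 8 left out, and the Hsd11b1 region is one of those farthest below the other libraries in column 8.
Tmem267, chr13:119488694-119488795, forward strand: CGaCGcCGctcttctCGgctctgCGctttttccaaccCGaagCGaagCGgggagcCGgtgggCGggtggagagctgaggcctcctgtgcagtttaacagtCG
Cdc42bpb, chr12:111352683-111352756, forward strand: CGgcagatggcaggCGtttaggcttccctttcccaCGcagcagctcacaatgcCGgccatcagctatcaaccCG
Rnf145, chr11:44545288-44545432, forward strand: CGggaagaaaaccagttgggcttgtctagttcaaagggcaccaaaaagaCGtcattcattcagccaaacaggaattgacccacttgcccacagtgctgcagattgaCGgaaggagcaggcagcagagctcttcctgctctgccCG
Rras, chr7:45019080-45019203, forward strand: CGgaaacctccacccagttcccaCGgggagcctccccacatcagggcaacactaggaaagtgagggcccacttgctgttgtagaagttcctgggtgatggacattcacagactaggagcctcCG
Slc1a2, chr2:102661473-102661541, forward strand: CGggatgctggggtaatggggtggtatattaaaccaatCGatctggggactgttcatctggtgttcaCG
Bcl11b, chr12:107991396-107991455, forward strand: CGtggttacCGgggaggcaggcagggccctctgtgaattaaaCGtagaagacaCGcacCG
Hsd11b1, chr1:193239816-193239901, forward strand: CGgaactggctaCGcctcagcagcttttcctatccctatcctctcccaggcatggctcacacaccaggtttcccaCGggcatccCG

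Mean DNAme of smoked WT columns 1 to 7 was above the mean of the control libraries in 7 of 7, and column 8 was below the other 15 WT libraries. Over scoreable cytosines, the control libraries ranged from 33.8% to 36.5% with a median of 35.6%. The smoked libraries ranged from 30.6% to 37.6% with a median of 36.5%, and the lowest value was that of column 8. Among the other brain libraries, the nearest to it were smoked Nrf2-/- columns 2 and 4, at 31.7% and 31.9%, and over all cytosines with a value smoked Nrf2-/- column 2 was lower than column 8, at 27.5% against 30.1%. Of the 8 smoked libraries, 5 lay above every control library. The mean was 35.9% ± 2.22 (SD, n = 8) in the smoked group and 35.4% ± 0.811 (SD, n = 8) in the control group, a difference of 0.439 points (2-sided exact permutation test, p = 0.684). Without column 8, the smoked mean was 36.6% ± 0.686 (SD, n = 7), 1.19 points above the control mean (exact permutation p = 0.00622). The difference stayed between 0.966 and 1.34 points, with exact permutation p from 0.00266 to 0.0133, when each of the 15 remaining libraries was left out in turn. Column 8 was left out for its low mean, the same value that is tested here. The results without it, these included, describe the other 15 libraries only. The permutation p-values measure the spread between the libraries of single animals. The sire and litter of each son are not known here, and sons may share them. The p-values therefore do not measure the spread between the sires, the animals that were exposed.

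Over the 861516 cytosines that no brain library lacked, where all libraries are averaged over the same positions, column 8 was again the lowest of the 16 WT libraries, at 30.1%. There the smoked mean was 31.4% ± 0.615 (SD, n = 8) and the control mean 31.0% ± 0.244 (SD, n = 8), a difference of 0.377 points (exact permutation p = 0.131). Without column 8 the difference was 0.565 points (exact permutation p = 0.0028). The mean rank of the libraries, which weighs column 8 only as the lowest of 16, was 10.9 in the smoked and 6.13 in the control group (exact permutation p = 0.0499 on scoreable cytosines, a test added after the data were seen). The groups were also compared within the lower and the higher facility numbers, the only order that the columns carry, and this too was added after the data were seen. Within the lower numbers the smoked mean was 37.0% and the control mean 35.7%, with no overlap (exact permutation p = 0.0286, the smallest possible with 4 against 4). Within the higher numbers, which include column 8, the smoked mean was lower by 0.423 points (exact permutation p = 0.886), and without column 8 it was higher by 0.965 points (exact permutation p = 0.286, n = 3 and 4). Over the cytosines that no brain library lacked, the smoked mean was higher by 0.858 points within the lower numbers (exact permutation p = 0.0286) and the difference was -0.104 points within the higher numbers (exact permutation p = 0.857). Without column 8 the smoked mean was higher by 0.202 points within the higher numbers (exact permutation p = 0.343).

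**Figure D1:**
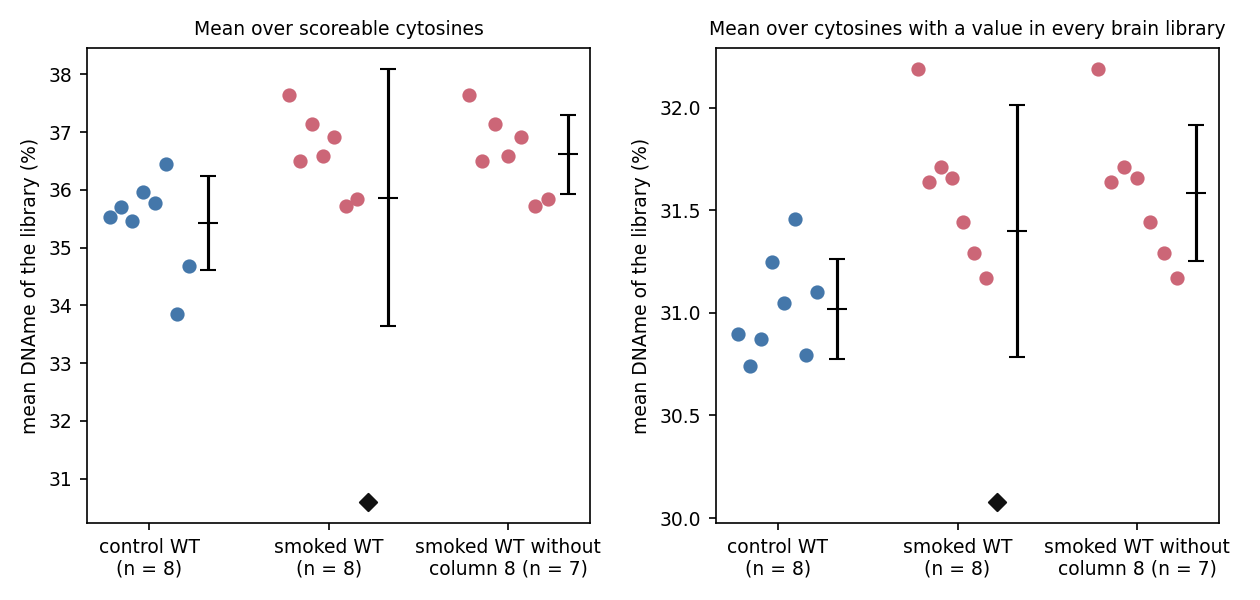
Mean DNAme of each library (percent, axes not starting at 0) over scoreable cytosines (left) and over cytosines that no brain library lacked (right), for control WT and for smoked WT with and without column 8 (black diamond); bars give the mean ± SD. Column 8 sits at 30.6% and 30.1%, below every other WT library, and smoked WT columns 1 to 7 lie above the control mean in both panels.

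Without column 8, the smoked mean was higher in each of 8 classes of regions, and the difference was largest in points among regions of intermediate level. A promoter is here a region within 1000 bp of a transcription start, and the remaining regions were exonic, intronic or intergenic by the annotation. Regions with a mean of 25 to 75% in the control WT libraries averaged 53.7% ± 2.12 (SD, n = 8) in control WT and 56.8% ± 2.02 (SD, n = 7) in smoked WT columns 1 to 7, higher by 3.16 points. Introns were higher by 1.78 points, exons by 1.59, intergenic regions by 1.54, the X chromosome by 0.833 and promoters by 0.641. Regions under 25% were higher by 0.496 points and those over 75% by 0.654. Exact permutation tests adjusted over the 8 classes (Benjamini-Hochberg) gave p from 0.0167 to 0.0224. The classes overlap and column 8 was left out for its low mean, so these tests add no independent evidence. With column 8 included, the adjusted exact permutation p was 0.999 in all 8 classes, and the promoter difference was -0.03 points. Column 8 itself averaged 12.97% in promoters, where the control libraries ranged from 16.8% to 18.2%, and 44.1% in regions of intermediate level, where they ranged from 49.8% to 57.1%.

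**Figure D2:**
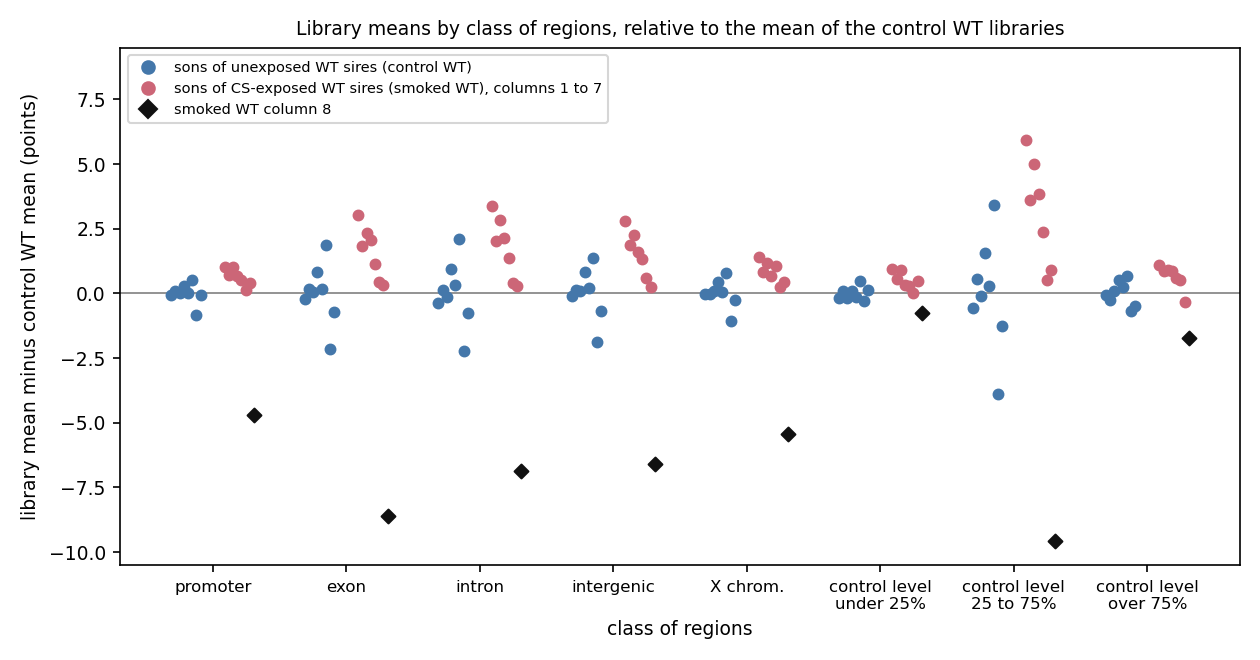
Mean DNAme of each library in 8 classes of regions, as the difference in points from the mean of the 8 control WT libraries; dots are control WT and smoked WT columns 1 to 7, and black diamonds are smoked WT column 8. Smoked columns 1 to 7 lie mostly above 0 and are most spread out in the class of 25 to 75%, while column 8 lies below all control libraries in each of the 8 classes.

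No region passed the test between smoked WT and control WT, with or without column 8. limma with all 4 brain groups in the fit called 0 of 80920 regions at an adjusted p of 0.05 (0%), with a smallest adjusted p of 0.365. Unadjusted p-values were under 0.05 in 3244 regions (4.01%), of which 2629 were higher (3.25%) and 615 lower (0.76%) in smoked WT. Without column 8, limma called 0 of 80881 regions (0%), with a smallest adjusted p of 0.245, and 4593 regions (5.68%) had an unadjusted p under 0.05, 4013 higher (4.96%) and 580 lower (0.717%). This split depended on the scale of the libraries. The median difference over all regions was 0.223 points, and 0.306 without column 8. After each library was centred on its own mean, these medians were -0.33 and -0.63, and the regions with an unadjusted p under 0.05 split into 1460 higher and 1435 lower, or 2145 higher and 8049 lower without column 8. Centring takes the same number of points from every region of a library, nearly unmethylated regions included. A lower value there can come from the subtraction. Fits with other settings called up to 6 regions: weights for each library called 5, in Agap1, Slc1a2, Adad2 and Tmem267 and 1 outside any gene, and 1 more in Ak1 without column 8. A fit of the 2 WT groups alone called 1 region, in Git2, and a fit without trend and robust moderation 1, in Gm19265.

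The named regions with higher DNAme in smoked WT were those of smallest p among regions in protein-coding genes that changed by over 5 points, and none passed the adjusted test. The first lay in a promoter interval assigned to Tmem267, 311 bp from the start of 3110070M22Rik, with 14 cytosines measured. Control libraries there ranged from 44.5% to 59.7% (median 52.9%) and smoked libraries from 54.7% to 72.6% (median 64.5%). All 8 smoked libraries were above the control mean, column 8 was the lowest of them, and the groups overlapped. The limma difference was 12.6 points (SE 2.63, p = 3.67e-05, adjusted p = 0.705), and 14.0 points without column 8 (SE 2.58, limma adjusted p = 0.245). With weights for each library the limma adjusted p was 0.0494, and 0.0263 without column 8, within ranges over all settings of 0.0494 to 1 and 0.0263 to 0.548. Sons of control Nrf2-/- sires averaged 63.7% in this region and sons of smoked Nrf2-/- sires 67.5%.

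An intron of Cdc42bpb, whose kinase acts downstream of the GTPase CDC42 on the actin skeleton, was nearly unmethylated in control WT. It ranged from 1.78% to 8.25% there and from 4.85% to 15.2% in smoked WT, a difference of 5.54 points (SE 1.25, limma adjusted p = 0.858). All 8 smoked libraries were above the control mean, with column 8 at 5.99%. A promoter of Vxn, which encodes the neuronal differentiation factor vexin, ranged from 13.5% to 16.7% in control and from 14.3% to 29.7% in smoked libraries. Of the smoked libraries 7 were higher than the control mean, including column 8 at 23.1%, and the difference was 7.39 points (SE 1.75, limma adjusted p = 0.988). An intron of Khdrbs2, a brain splicing factor, averaged 75.3% ± 3.21 (SD, n = 8) in control and 82.5% ± 3.96 (SD, n = 8) in smoked libraries. In the Rapgefl1 region, in a coding exon within 1000 bp of a start, the corresponding means were 76.1% ± 2.54 and 86.0% ± 6.97 (SD, n = 8 each).

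Leaving out column 8 brought in 3 further regions, in which column 8 lay within the control range or under it. An intron of Rnf145, which encodes a ubiquitin ligase of the endoplasmic reticulum, ranged from 11.98% to 35.3% in control libraries and from 39.0% to 69.8% in smoked WT columns 1 to 7, without overlap. Column 8 read 15.2%, inside the control range. The difference was 23.9 points without column 8 (SE 4.99, limma adjusted p = 0.338) and 19.8 points with it (SE 5.49, limma adjusted p = 1.00). In Rras, a small GTPase of the RAS family, in a promoter interval 1119 bp from the gene's start, control libraries ranged from 5.64% to 12.1% and smoked WT columns 1 to 7 from 9.33% to 30.0%, while column 8 was at 0%. An intron of Slc4a10, a bicarbonate transporter of neurons, averaged 13.8% ± 2.16 (SD, n = 8) in control WT and ranged from 16.5% to 26.8% in smoked WT columns 1 to 7, with column 8 at 13.9%. Over all regions with enough values, the groups did not overlap in 9 of 62922 (0.0143%) with column 8, 6 higher (0.00954%) and 3 lower (0.00477%) in smoked WT. Without it they did not overlap in 47 of 72478 (0.0648%), 41 higher (0.0566%) and 6 lower (0.00828%).

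The named regions with lower DNAme in smoked WT were led by an intron of Slc1a2, the main glutamate transporter of astrocytes, 2815 bp from its start. Control libraries ranged from 17.6% to 35.4% (median 24.6%) and smoked libraries from 6.90% to 19.9% (median 11.8%). Every smoked library was below the control mean, and column 8, at 17.3%, was among the higher ones. The limma difference was -12.7 points (SE 2.64, p = 3.6e-05, adjusted p = 0.705), and -13.4 points without column 8 (SE 2.72, limma adjusted p = 0.338). With weights for each library the limma adjusted p was 0.0494, and 0.0328 without column 8, within ranges over all settings of 0.0494 to 1 and 0.0328 to 0.657. Both groups of sons of Nrf2-/- sires lay between, at 17.8% each.

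An intron of Bcl11b, a transcription factor of deep-layer projection neurons, was among the 9 of 62922 regions (0.0143%) without overlap of the groups. Among so many regions some separate by the order of the libraries alone, so the lack of overlap is no test. The 9 measured cytosines of the Bcl11b region averaged from 65.5% to 74.4% in control libraries (mean 69.99% ± 3.22, SD, n = 8) and from 41.6% to 63.0% in smoked libraries (mean 53.8% ± 8.06, SD, n = 8). Smoked WT columns 1 and 4 were the lowest, at 41.6% and 41.8%, and column 8 was in the middle, at 54.4%. The limma difference was -16.2 points (SE 3.43, adjusted p = 0.705), and -16.3 points without column 8 (SE 3.60, limma adjusted p = 0.372). Control and smoked Nrf2-/- groups averaged 63.1% and 61.4%. Smaller differences were in the sperm sodium-proton exchanger gene Slc9c1 (-5.92 points), Card10, a scaffold of NF-κB signalling (-5.25 points), and the sialyltransferase gene St6galnac3 (-5.74 points). In these 3 regions the limma adjusted p was 1.00 each. Without column 8, regions of Pacsin3 (-5.15 points) and Fndc5, the irisin precursor gene (-9.93 points), were added, with limma adjusted p of 0.595 and 0.674.

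**Figure D3:**
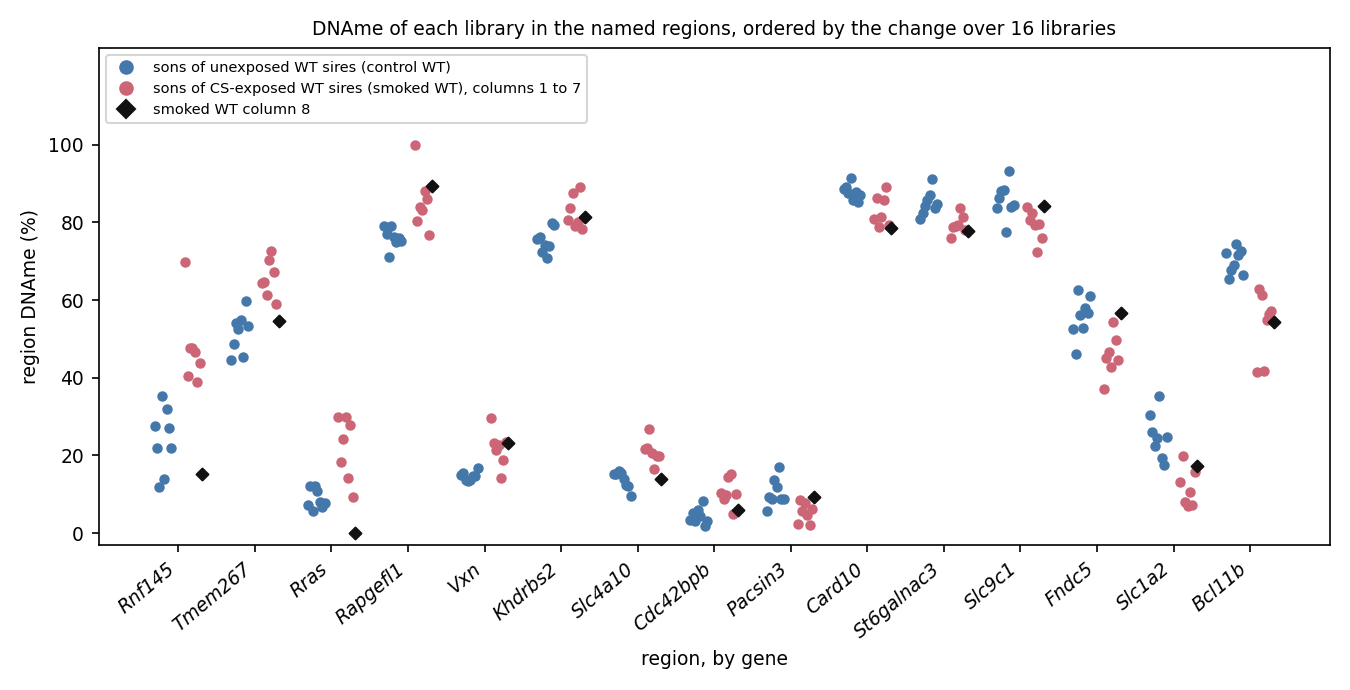
Region DNAme (percent) of each library in the 15 regions named by smallest p with or without column 8, ordered by the difference over 16 libraries; dots are control WT and smoked WT columns 1 to 7, and black diamonds are smoked WT column 8. Groups are separate at Bcl11b, and column 8 lies apart from the other smoked libraries at Rnf145 (15.2%) and Rras (0%).

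A differentially methylated region (DMR) was defined here by size, without a test, after the thresholds of the study: at least 3 cytosines over more than 50 bp, with 33.3% or more of them and their mean changed by over 5 points. Both strands of a CpG counted as separate cytosines and no read minimum could be applied here, so the rule is not the same as that of the study. By this rule 6743 of 80920 regions (8.33%) were DMRs, 5531 higher (6.84%) and 1212 lower (1.5%) in smoked WT. Without column 8 there were 8893 (11%), 7909 higher (9.77%) and 984 lower (1.22%). Both sets shared 6241 regions, while 502 were found only with and 2652 only without column 8. The shared regions all had the same direction, which follows largely from the 15 libraries that both sets use. Regions of 25 to 75% made up 23.7% of all regions but 68.8% of the DMRs, or 70.3% without column 8. Of introns 12.99% were DMRs, and of promoters 3.44%. The DMRs had a median observed to expected CpG ratio of 0.553, against 0.679 for all regions. The median SE of the limma difference over 16 libraries was 4.004 points in regions of 25 to 75% and 0.430 under 25%. It was 1.83 points over 75%, 2.53 in introns and 0.455 in promoters. A fixed cut of 5 points is passed more often by spread alone where the SE is larger. The shares and the CpG ratio therefore do not show where a smoke change is concentrated, which was not tested. Of single cytosines, 210194 (15.1%) differed by over 5 points, 135239 higher and 74955 lower in smoked WT, and 225338 (16.2%) without column 8. Since no region passed the adjusted limma test, these counts are of size only.

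The smoked libraries were not shown to vary more among themselves. The spread of a library was taken as the median, over regions, of the absolute distance from the median of the other libraries of its group. It averaged 1.73 ± 0.247 points (SD, n = 8) in smoked WT and 1.69 ± 0.365 points (SD, n = 8) in control WT (exact permutation p = 0.758), and the difference was 0.0449 points without column 8 (exact permutation p = 0.765). With each library centred on its own mean the difference was 0.310 points (exact permutation p = 0.316), or 0.0553 points without column 8 (exact permutation p = 0.744). Leaving out control WT column 6 gave 0.168 points (exact permutation p = 0.0836). The widest libraries were control WT column 6, at 2.55 points, and smoked WT column 1, at 2.29 points. In regions at 10 to 90%, the widest library was again control WT column 6, at 5.70 points, followed by smoked WT column 1 at 5.42 and column 8 at 5.17.

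Gene lists were described by the regions from 5000 bp upstream of a gene's start to its end. limma called 0 regions of any list at an adjusted p of 0.05, with or without column 8. The share of DMRs by size depends on the class and level of a list's regions. Over 16 libraries it was 3.44% in promoters, 12.99% in introns and 24.2% in regions of 25 to 75%. The 8.33% of all regions is not matched for these, so a list's share beside it is no test of enrichment. Among glutamate and GABA receptors, which carry most excitatory and inhibitory signals of the cortex, 36 of 270 regions in 33 genes were DMRs by size (13.3%), 30 higher and 6 lower, beside 8.33% of all regions. Promoters were 82 of these 270 regions, against 30062 of all 80920. The median difference over the 270 regions was 0.424 points, against 0.223 for all regions. The smallest p was in an exon of Grm2, a presynaptic glutamate receptor, at 90.8% ± 1.70 in control and 93.6% ± 2.26 in smoked WT (SD, n = 8 each; limma adjusted p = 1.00).
The nicotinic receptors, which bind acetylcholine and nicotine, had 5 higher and 1 lower DMR among 50 regions, beside 8.33% of all. A promoter of the subunit gene Chrnb3 ranged from 36.2% to 76.5% in control WT and from 62.5% to 83.1% in the 7 smoked libraries with a value, column 8 having none. Dopamine genes had 3 higher and 1 lower DMR among 45 regions (8.89%), and genes of the stress axis and neurotrophins 5 higher and 2 lower among 111 (6.31%). In the latter, a promoter region of Bdnf, a neurotrophin gene, was low in both groups, from 1.56% to 2.25% in control and from 1.43% to 4.65% in smoked WT.

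Of the 85 regions in 29 antioxidant and Nrf2 target genes, 2 were higher and 1 was lower by size (3.53%, beside 8.33% of all regions), with a median difference of 0.230 points. A coding region of Pgd, of the pentose phosphate pathway that yields NADPH, averaged 86.4% ± 4.26 in control and 91.6% ± 3.98 in smoked WT (SD, n = 8 each; limma adjusted p = 1.00). Oxidative phosphorylation genes had 6 higher and 1 lower DMR among 103 regions (6.80%), and the Sdhd promoter, of a complex II subunit, was at 3.72% ± 0.312 and 4.27% ± 0.290 (SD, n = 8 each). Among genes of the aryl hydrocarbon receptor pathway and known methylation markers of smoking in blood, 3 of 54 regions were higher and 0 lower (5.56%). A coding exon of Gfi1, one such marker, averaged 1.51% in control and 2.73% in smoked WT (n = 7 each).
Beside 8.33% of all regions, DMRs were 9 of 96 regions (9.38%) for neuropeptides, hormones and receptors, where a Hcrt intron region (37.5% ± 3.77 in control, 30.8% ± 5.66 in smoked WT, SD, n = 8 each) was lower in all 8 smoked libraries than the control mean. They were 5 of 95 (5.26%) for interferon and inflammation, 4 of 72 (5.56%) for DNA methylation writers and erasers, 16 of 174 (9.20%) for clustered protocadherins and neuronal adhesion, and 10 of 353 (2.83%) for developmental transcription factors. In these lists a Jak3 exon ranged from 4.48% to 17.2% in control WT and from 15.7% to 22.4% in 6 smoked libraries, and a Tet2 intron averaged 91.8% and 95.2%. The exon regions of Pcdhgb4 (45.6% and 55.2%, 1 control library without a value) and Pax9 (1.90% and 0.540%) had limma adjusted p of 1.00. The clustered protocadherins share near-identical exons, so a region there may hold reads of more than 1 gene.

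Markers of the cell types of cortex were examined in the same libraries, because the mix of cells was not measured otherwise. The promoters of neuronal genes averaged 6.83% to 8.45% in control libraries, 6.70% to 8.47% in smoked WT columns 1 to 7 and 7.56% in column 8. For oligodendrocyte genes the ranges were 8.59% to 10.5% and 8.87% to 11.3%, and column 8 was at 5.67%. For endothelial genes they were 10.7% to 15.9% and 10.6% to 17.6%, with column 8 at 5.12%. Column 8 was below the other 15 WT libraries at 1 of 6 measured oligodendrocyte genes, Mbp (4.50% against 18.3% to 29.3%), and at 2 of 3 endothelial genes, Cldn5 and Flt1, which are named here after their values were seen. Of 14 neuronal genes, column 8 was below the other 15 libraries at 2 and above them at 1. Of 8 astrocyte genes it was below them at 1 and above them at 1, and of 5 microglial genes below at 1 and above at 0. Among all promoter regions with a value in all 16 libraries, column 8 was below the others in 8.90% and above them in 11.04%. Astrocyte promoters averaged 13.7% to 19.03% in control WT (median 17.2%), 16.6% to 19.7% in smoked WT columns 1 to 7 (median 18.3%) and 14.3% in column 8. Microglial promoters, the most methylated of the 5 cell types, averaged 65.2% to 76.0% in control WT (median 70.97%), 66.9% to 79.5% in smoked WT columns 1 to 7 (median 76.8%) and 67.0% in column 8, and 4 of the 7 smoked libraries were above every control library. Over scoreable cytosines 5 of the 7 were, so this is not particular to microglial promoters. The microglial mean rests on 5 genes with 1 region each, and Spi1 alone ranged from 29.1% to 86.7% in columns 1 to 7. The part of the cell mix in the low values of column 8 and in the higher means of columns 1 to 7 was not tested.
By region, neuron genes held 11 higher and 2 lower DMRs of 114 (11.4%), oligodendrocyte genes 8 and 1 of 55 (16.4%), astrocyte genes 6 and 1 of 42 (16.7%), microglial genes 6 and 0 of 42 (14.3%), and endothelial genes 7 and 0 of 32 (21.9%), beside 8.33% of all regions. The share was 24.2% among all regions of 25 to 75%, and the lists were not matched for level or class. These shares are no test of enrichment. An exon of Camk2a, the kinase of excitatory synapses, averaged 20.1% in control and 15.2% in smoked WT. The Pdgfra region of oligodendrocyte precursors averaged 59.0% ± 13.2 (SD, n = 8) in control and 78.1% ± 12.1 (SD, n = 7) in smoked WT, column 8 having no value. A Tmem119 exon of microglia averaged 88.8% and 92.9%, and a Cdh5 intron of endothelium 13.2% and 22.9%, where column 8 read 5.35%.

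Column 8 was below the other 15 libraries at most imprinted genes methylated on the maternal allele. Over 15 such genes, promoters averaged 33.1% to 38.5% in control libraries, 37.0% to 41.7% in smoked WT columns 1 to 7, and 21.8% in column 8. In column 8, 11 of the 15 genes were below all other 15 libraries and 2, Slc38a4 and Inpp5f, were above them. Among promoter regions with a value in all 16 libraries, column 8 was below the others in 8.90% and above them in 11.04%. Among regions of 25 to 75% these shares were 35.0% and 2.71%. Nap1l5 was at 1.96% in column 8, against 20.4% to 35.1% in control WT. Peg13 was at 7.33% against 30.0% to 46.4%, and Snrpn, of the Prader-Willi imprinted domain, at 3.98% against 16.6% to 49.7%. Peg10, a gene needed for the placenta, was at 2.38% against 12.8% to 41.3%, Kcnq1ot1, whose RNA silences its neighbours, at 4.83% against 15.1% to 29.6%, and Nespas at 0% against 9.05% to 24.6%. The promoters of 5 paternally methylated imprinted genes averaged 10.8% in column 8, inside the 10.4% to 15.3% of control WT, with 1 gene below the other 15 libraries. Control WT medians were only 1.10% at Rasgrf1, 2.54% at Igf2 and 10.96% at Dlk1, which left little room for a lower value. H19 and Meg3, with control WT medians of 21.6% and 24.1%, were at 18.1% and 22.7% in column 8, inside their control ranges. Promoters of 8 germline genes, a class of which many are silenced by DNAme in the soma, averaged 62.6% in column 8 and 69.6% to 72.9% in control WT. In column 8, 5 of these genes were below the other libraries, beside 8.90% of all promoter regions. Except Dazl, these genes had control WT medians from 65.7% (Ddx4) to 94.1% (Tex19.1). At such levels column 8 was below the others more often, in 35.0% of regions of 25 to 75% and 12.8% of those over 75%. For Dazl, 1 of the 8, the value came from 1 promoter region, almost free of DNAme in all 16 libraries (0.215% to 1.27%). These promoter means use only regions with a value in every brain library. Another Dazl region, highly methylated and described below, had no value in column 8 and was not part of them.
Outside column 8, maternally methylated genes had 11 higher and 0 lower DMRs of 61 regions (18.03%, beside 11% of all regions), and 7 and 2 with column 8 included. The list averaged 43.1% to 47.6% in control WT libraries, over its regions with 16 values. Among all regions of 25 to 75%, the DMR share was 32.7% without column 8 and 24.2% with it. Paternally methylated and germline lists had 0 DMRs. Their named regions, in Igf2r (73.2% and 76.6%), Rasgrf1 (3.60% and 1.90%) and Dazl (78.9% and 83.5%), had limma adjusted p of 1.00, and column 8 had no value in the last 2.

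**Figure D4:**
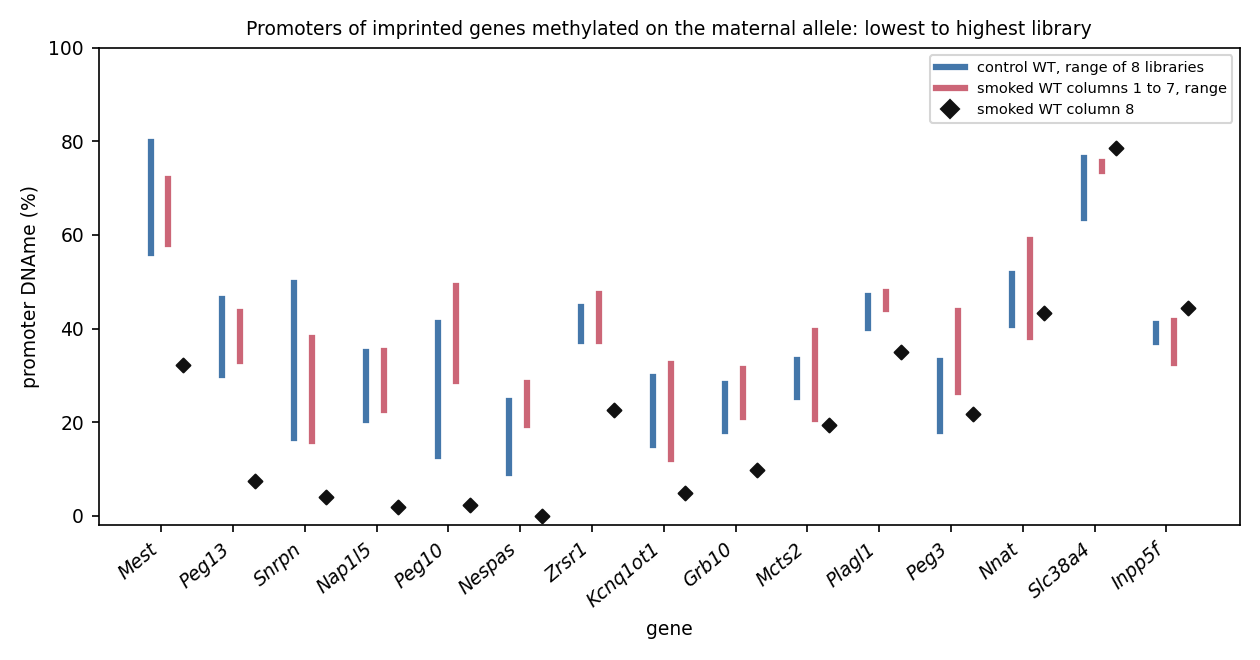
Promoter DNAme (percent) of 15 imprinted genes methylated on the maternal allele; bars span the lowest to the highest of the 8 control WT libraries and of smoked WT columns 1 to 7, and black diamonds are smoked WT column 8. Column 8 is below both bars at 11 genes and above both at Slc38a4 (78.5%) and Inpp5f (44.4%).

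Across 62922 regions with a value in all 16 libraries, column 8 was the lowest library in 16.01% and the highest in 6.93%. Control WT column 6 was the lowest in 15.01% and the highest in 14.6%, and smoked WT column 1 was the highest in 17.03%. In regions of 25 to 75% smoked WT column 8 was the lowest in 35.0%, and the next library, control WT column 6, in 9.60%. Column 8 lay more than 20 points outside the other 15 libraries in 952 regions, below them in 951. These 951 were 132 of 25889 promoters, 175 of 7017 exons, 369 of 14880 introns and 275 of 15136 intergenic regions. Their median was 65.3% in control WT brain, against 39.8% for all regions with 16 values, and 95.4% in F0 sperm of control WT males. A region nearly unmethylated in the other libraries cannot lie 20 points below them, so a high level is partly set by the selection. No sperm level of other regions is given here for comparison. The Hsd11b1 region, in a promoter interval near the gene of the enzyme that regenerates corticosterone, was at 5.87% in column 8 and 78.3% to 93.6% in the others. An exon of Lrp5, a WNT co-receptor, was at 2.16% against 72.1% to 94.6%, and one of Shisal1 at 6.06% against 78.6% to 98.3%. Farthest above the others were regions of Fcgr1, an IgG receptor (68.3%, others 19.2% to 47.6%), Polr2c, an RNA polymerase II subunit (100%, others 60.2% to 81.6%), and Rbfox3, the gene of NeuN (53.9%, others 12.8% to 36.2%). Only the Fcgr1 region exceeded them by over 20 points.

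Libraries of other groups showed the low levels of column 8 in part. In the 79 regions where column 8 was more than 40 points below, it averaged 17.5%, and the control WT libraries 72.2% to 78.9%. Smoked Nrf2-/- columns 2, 4, 5 and 6 averaged 49.5%, 52.3%, 59.4% and 65.0% there, and the other 12 libraries of sons of Nrf2-/- sires 70.6% to 78.6%. The same 4 libraries had the lowest promoter levels at the maternally methylated genes, at 23.8%, 26.7%, 26.0% and 29.3%, against 33.6% to 41.2% in control Nrf2-/-. As a description across 59463 regions, the deviations of column 8 from the mean of the other libraries of its group followed those of smoked Nrf2-/- column 2 (Pearson's r = 0.562), control WT column 7 (r = 0.487) and smoked Nrf2-/- column 4 (r = 0.440). Smoked Nrf2-/- columns 1, 3, 7 and 8 had r of -0.46, -0.39, -0.35 and -0.47, and averaged 72.6% to 76.9% in the 79 regions. Their deviations are from a group mean that holds the low columns 2, 4, 5 and 6. A negative r there can come from that mean and is no opposite pattern. For smoked Nrf2-/- columns 5 and 6, r was 0.331 and 0.1003, against 0.354 for control Nrf2-/- column 5. Regions are not independent, and the libraries share the enzymes, reference and positions. No cause of these low levels was tested.

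**Figure D5:**
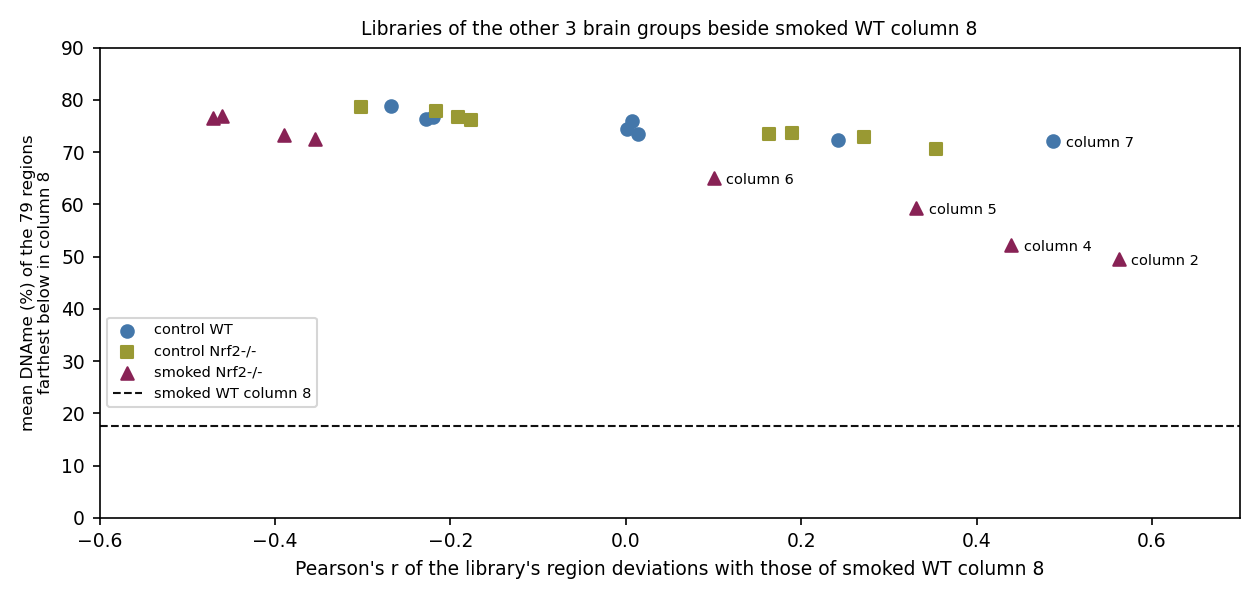
Each point is a brain library of the other 3 groups: Pearson's r of its region deviations with those of smoked WT column 8 (x axis, 59463 regions) and its mean DNAme (percent) in the 79 regions farthest below in column 8 (y axis); the dashed line is column 8 (17.5%). Smoked Nrf2-/- columns 2, 4, 5 and 6 are nearest to the line, and control WT column 7 has a high r (0.487) at 72.2%.

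The smoke change in sons of WT sires was compared with that in sons of Nrf2-/- sires as the difference of both changes in 1 fit. With all libraries limma called 0 of 80920 regions at an adjusted p of 0.05, and 7638 (9.44%) had an unadjusted p under 0.05. Without smoked WT column 8, a fit added after the data were seen, 24 of 80881 regions (0.0297%) passed, and 10283 (12.7%) had an unadjusted p under 0.05. In all 24, DNAme was higher in smoked WT columns 1 to 7 than in control WT and lower in smoked than in control Nrf2-/-, and in 8 of them column 8 had no value. They were 10 intronic, 9 intergenic, 4 exonic and 1 promoter region. One such region lay between genes, with the start of Pccb 11083 bp away. It averaged 37.1% in control WT and 59.5% in smoked WT columns 1 to 7, with column 8 at 1.59%. In sons of control and smoked Nrf2-/- sires it averaged 54.6% and 36.6% (difference of changes 40.4 points, SE 6.46, limma adjusted p = 0.0254). The Rnf145 intron was also among the 24 (36.04 points, limma adjusted p = 0.0455). The count depended on single libraries: leaving out 1 more of the 15 WT libraries gave 4 to 174 regions. It also depended on the scale: with each library centred on its own mean, 16649 regions passed without column 8, 2038 higher and 14611 lower, and 0 with all libraries. Without column 8, centring moved the median difference of changes from 0.752 to -1.46 points. Centring takes the same number of points from every region of a library, nearly unmethylated regions included. Calls there can come from the subtraction, so the centred counts describe the scale only. In all 24 regions the control Nrf2-/- mean was above the control WT mean, and no fit left out smoked Nrf2-/- columns 2, 4, 5 and 6.

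The smoke changes of brain were set beside those of sperm, which share no library with them. Across 68791 regions, the differences in brain and in F0 sperm of smoked and control WT males had r = -0.02, and across 33496 regions those in brain and F1 sperm had r = -0.01. Of the 4255 brain DMRs measured in F0 sperm, 46.0% had the same sign there, against 47.7% of all regions. Of 1837 measured in F1 sperm the share was 53.3%, against 52.9%. Without column 8 the shares were 44.4% and 52.7%. Of the brain DMRs 11.9% differed by over 5 points in F0 sperm and 17.1% in F1 sperm, beside 4.35% and 17.2% of all regions. These correlations are descriptions across regions, which share the assay and its base composition.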

How the data were processed

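RRBS libraries of F1 prefrontal cortex were grouped by their labels. The authors aligned reads to mm10 with the Bismark pipeline (version not given in the sources used here), and the deposited tables held a methylation percent per cytosine and library, with no read count, so that no interval or read minimum could be applied. All columns were used (0 unused columns), and all 2514705 positions of the brain tables lay on CpG cytosines of GRCm38, strands kept apart. Regions, their class by GENCODE M21 and the DMR rule adapted from the study are as given in the report. A library entered a region with 50% or more of its cytosines. Region percents were tested with limma 3.58.1 (R 4.3.3; trend and robust moderation, 4 brain groups, Benjamini-Hochberg adjustment), and single values per library with exact permutation tests (scipy 1.17.1). limma was tested on simulated data. Named regions were the 5 of smallest p in each direction with and without column 8, changed by over 5 points in a protein-coding gene with 16 values, the smallest p of each gene list, and the 3 farthest outside in column 8 in each direction. The members, lists and rules were chosen with earlier results of these data known. Alternatives were other cytosine sets, joining distances, scales, weights, centring and leaving out each library. A result that needs a withheld item is not reported here.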

Additional observations from a re-analysis of the deposited data

Results flagged for a closer look

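Single libraries far from the others of their group were sought by Dixon's test in 70 groups of values, of which chance picks about 1 in 20, and 13 values from 4 libraries were found. Of these, 10 were of smoked WT column 8, which was singled out for its low mean, so that they describe that choice and are no separate finding. They were its mean over scoreable cytosines (30.6%), its means in promoters (12.97%), exons (60.0%), introns (56.97%), intergenic regions (59.1%), X-chromosomal regions (37.6%) and regions of 25 to 75% (44.1%), and its promoter means for oligodendrocyte genes (5.67%), germline genes (62.6%) and maternally methylated imprinted genes (21.8%). Control WT column 7 stood apart in promoters (16.8%). Control WT column 6 and smoked WT column 1 stood apart in their spread (2.55 and 2.29 points). Without smoked WT column 8, a fit added after the data were seen, the limma test of the difference itself called 24 regions in which the smoke change differed between sons of WT and Nrf2-/- sires, against 0 of 80920 with all libraries (7638 at an unadjusted p under 0.05) and 4 to 174 when 1 more WT library was left out.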

How the results depend on the processing

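No paired analysis was possible because the columns carry no replicate number. Of the values that answer a comparison, under the other settings 50 kept their direction and their side of the threshold, 24 moved, 1 passed the threshold and 1 turned. When each library was left out in turn, 159 kept both, 18 moved, 2 passed and 7 turned. By mean ranks, a test chosen after seeing the data, the library mean passed with 16 libraries (4.75 ranks), and the promoter difference turned to 0.221 points on cytosines with a value in every library. limma called 1 region with the 2 WT groups alone, 1 without trend and robust moderation and 5 with library weights, and 1, 1 and 6 without column 8. DMRs by size numbered 1092 and 1839 (without column 8) at 10 points, 1751 and 3044 on cytosines of every library, 11014 and 13832 with joining at 300 bp, and 2879 and 3982 with at least 5 cytosines. Cytosines changed numbered 62056 and 71201 at 10 points and 73839 and 84986 on those of every library. The difference between sire genotypes gave 1 region with joining at 300 bp. Without column 8, settings chosen after seeing the data gave 47 with weights, 6 on the logit scale, 3 on cytosines of every library, 11 with at least 5 cytosines and 16649 with centred libraries (2038 higher, 14611 lower). The causes were not tested.

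Leaving out each library gave library mean differences of 0.185 to 1.19 points (0.966 to 1.34 without column 8), or 0.264 to 0.565 (0.465 to 0.634) on cytosines of every library, spread differences of -0.0493 to 0.168 (-0.0144 to 0.173), 6141 to 8893 DMRs (7985 to 10218), 0 regions called by limma, and 0 to 24 regions that differed between genotypes (4 to 174). The highest library mean difference, DMR count of 8893 and 24 regions were those without column 8. Without column 8, centring turned Sdhd to -0.376 and Hsd11b1 to -0.109 points, and weights turned Lrp5 to 0.587. Leaving out 1 library gave -5.91 to 0.627 points for Fcgr1, -10.28 to 2.90 for Shisal1, -11.7 to 0.828 for Hsd11b1 (-0.454 to 1.78 without column 8) and, without column 8, -2.45 to 0.765 for Lrp5.

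The depth behind each percent is unknown, so a percent from few reads cannot be told from one from many. Regions sparse in column 8 enter the 16-library fit from fewer libraries.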
